A study of Oryza sativa Japonica Group with 18 samples.

Results

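Leaves of rice seedlings that overexpress OsERF096 were compared with leaves that carry an RNA interference construct against the same gene, both after 12 h at 4 °C. The comparison uses 6 of the 18 RNA sequencing libraries, 3 of the overexpression line (OX cold) and 3 of the interference line (RNAi cold), and no wild-type (WT) library enters the difference. All plants were japonica rice grown in a culture room to the 3-leaf stage, and OX control, RNAi control, WT cold and WT control leaves (3 libraries each) complete the design. The labels give neither the promoter of the transgenes nor whether a line is 1 transformation event or the 3 libraries of a group came from different plants. The p-values therefore refer to library-to-library spread, which may be technical. The row of OsERF096 was not analysed here, so the line labels are unchecked by their target gene.

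OsERF096 belongs to the ethylene response factor family, plant transcription factors that carry an AP2/ERF DNA-binding domain. The best known cold factors of plants, the CBF/DREB1 proteins, belong to the same superfamily: chilling induces their genes within hours, and they in turn activate genes for membrane, osmotic and antioxidant protection. In leaves, cold also acts on the jasmonate, abscisic acid and auxin pathways, on cell wall synthesis and on water channels.

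Values are FPKM, in which fragments are divided by gene length and by the library total, and the absolute read depth is unknown. A gene was tested if it reached 1 FPKM in at least 3 of the 18 libraries, which 23175 of 38610 table rows did. Differences are OX minus RNAi on the log2(FPKM + 1) scale, which understates the change of low genes, with a standard error (SE). A gene was called at a limma p under 0.05 after Benjamini-Hochberg adjustment over all rows tested. Between 19932 and 20927 genes had at least 1 FPKM in each of the 6 cold libraries. Correlations of log2 values were 0.972 to 0.982 within OX cold, 0.974 to 0.984 within RNAi cold and 0.942 to 0.965 between them.

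The leaf label was checked with 5 photosynthesis genes, whose summed level was 27010, 15705 and 23373 FPKM in OX cold replicates 1 to 3 and 30416, 11756 and 25829 FPKM in RNAi cold replicates 1 to 3. The low sums in both replicates 2 follow RBCS-C, a small subunit gene of Rubisco, at 1627 FPKM in OX cold and 2801 FPKM in RNAi cold, against at least 11056 FPKM in the other cold libraries of both lines. The 2 root markers summed to between 1.4 and 7.97 FPKM in OX cold and 2.54 and 4.22 FPKM in RNAi cold, with LSI2 at 0, and both shoot meristem markers were at 0 in all 6 libraries. In leaf RNA, fewer cells of a type and less RNA per cell cannot be told apart.

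After cold, 870 genes (3.75% of those tested) were higher in OX than in RNAi leaves and 507 (2.19%) were lower, 1377 in all or 5.94%. The median called gene differed by 0.84 on the log2 scale, and the median of all genes was 0.06. The higher genes made up 63.2% of the calls as deposited, but quantile normalization gave 46.1% and median-ratio scaling 46.3%, so the balance of directions rests on the scaling. Differences of at least 2 on the log2 scale were fewer among the higher genes, 64, than among the lower ones, 76. Of the new genes, which the authors' table numbers without a locus ID, 101 of 1156 were called (8.74%), against 5.79% of locus IDs. The share called was lowest, 3.96%, in genes that averaged under 1 FPKM, and highest, 7.07%, in those between 10 and 100 FPKM. The count was 461 without OX cold replicate 3, 558 without OX cold replicate 2, 476 without RNAi cold replicate 1 and 627 without RNAi cold replicate 2. Without WT control replicate 2, which enters only the estimate of spread, it was 2286, and all 1377 genes were among them.

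Of 308 listed genes with a checked name, 16 were called, 11 higher and 5 lower in OX. With all libraries fitted, that share, 5.19%, is near the 5.94% over all genes. More listed genes were called in other fits, so the likeness is limited to the main fit. Without WT control replicate 2, 2286 genes were called, with 5 cellulose synthase and 4 lignin and flavonoid synthesis genes among them. On the OX and RNAi libraries alone 1399 were called, with 5 and 3 genes of these lists, while the kinase gene CPK21 lost its call. The main fit called 1377 genes and none of these lists. The plot of library values shows 14 of the 16 genes called in the main fit with a pair of secondary wall genes. The plot of gene lists shows every list with 4 or more members tested.

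**Figure D1:**
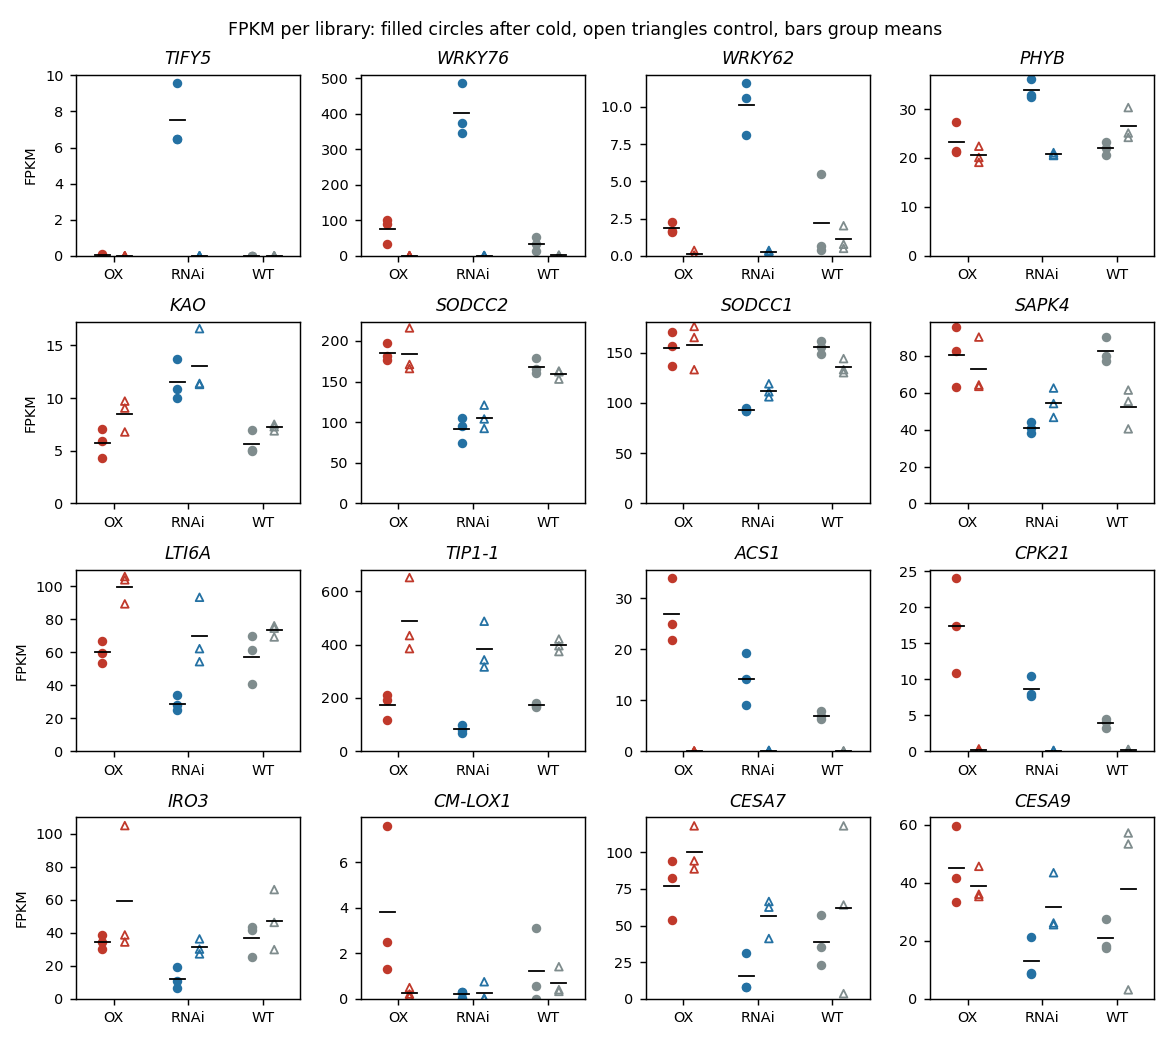
FPKM of 16 named genes (vertical axes from 0, FPKM) in the OX, RNAi and WT libraries; filled circles are cold libraries, open triangles control libraries, and bars the means of 3 libraries. TIFY5, WRKY76 and WRKY62 are highest in the 3 RNAi cold libraries, and SODCC2 is lower in RNAi than in OX leaves in both conditions.

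TIFY5, WRKY76 and WRKY62, regulators of jasmonate and defence signalling, were lower in OX than in RNAi cold leaves. TIFY5, one of the JAZ proteins that hold back jasmonate-responsive transcription until the hormone triggers their breakdown, had 0, 0.119 and 0 FPKM in OX cold leaves, against 6.5, 9.57 and 6.45 FPKM in RNAi cold leaves. It was listed at 0 in all 3 WT cold libraries and in all 9 control libraries, so RNAi cold leaves alone among the 6 groups had a clear level. On the log2 scale its difference was -3.01 ± 0.13 (SE; adjusted p = 3.25e-10). The SE draws on the spread of all 6 groups, most of which were at 0. TIFY5 reached the minimum of 1 FPKM only in the 3 RNAi cold libraries. It was therefore tested only because it was high there, and its adjusted p is not independent of that filter. Over the other settings tried the highest adjusted p was 0.000129. TIFY5 was the only called gene among 13 JAZ genes tested. The other 12 lay between -0.64 and 0.21, and the list median was -0.13.

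WRKY76 and WRKY62 carry neighbouring locus numbers on chromosome 9 and encode related WRKY transcription factors known in rice as repressors of defence genes. WRKY76 had 88.6, 33.2 and 102 FPKM in OX cold leaves and 373, 347 and 486 FPKM in RNAi cold leaves. Every RNAi cold library was above every OX cold library, and the 3 WT cold libraries, at 52, 13.5 and 34 FPKM, were nearer to OX. The difference was -2.55 ± 0.47 (SE; adjusted p = 0.00525), with an adjusted p of 0.0538 at a pseudocount of 0.1.

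WRKY62 had 1.59, 2.27 and 1.65 FPKM in OX cold leaves and 8.11, 10.6 and 11.6 FPKM in RNAi cold leaves, again without overlap. Its difference was -1.96 ± 0.42 (SE; adjusted p = 0.0139). The call ended without OX cold replicate 3 (adjusted p = 0.0602), without RNAi cold replicate 2 (0.0508) and at a pseudocount of 0.1 (0.0712). Before cold both genes were low in both lines, WRKY76 at 0.517 ± 0.23 FPKM in OX and 0.569 ± 0.527 FPKM in RNAi control leaves (SD, n = 3). How reads were divided between close relatives in the authors' values is not given, and for WRKY76 and WRKY62 it could matter. The remaining 3 WRKY genes listed were not called, with WRKY24 at -0.82 ± 0.53, WRKY51 at -0.46 ± 0.32 and WRKY71 at -0.16 ± 0.64.

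Jasmonate synthesis had 1 called gene among 9 tested. CM-LOX1, a lipoxygenase gene of the chloroplast, had 1.33, 7.59 and 2.5 FPKM in OX cold leaves and 0.287, 0.314 and 0.0443 FPKM in RNAi cold leaves. The lines did not overlap, though OX cold replicate 2 was far above the rest of its group. The difference, 1.77 ± 0.48 (SE; adjusted p = 0.0412), lost its call without OX cold replicate 2 (adjusted p = 0.174) or 3 (0.1) and without RNAi cold replicate 1 (0.114), 2 (0.0948) or 3 (0.0878). A replicate block ended it too (adjusted p = 0.0624).

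Antioxidant genes were represented by the copper/zinc superoxide dismutases, which turn superoxide into hydrogen peroxide. SODCC2 had 176, 181 and 198 FPKM in OX cold leaves and 74.6, 105 and 94.9 FPKM in RNAi cold leaves, with no overlap. The difference of 1.02 ± 0.14 (SE; adjusted p = 0.000391) was also called before cold, at 0.79 ± 0.14 (adjusted p = 0.00522). SODCC2 averaged 168 ± 9.54 FPKM in WT cold leaves (SD, n = 3), near OX.

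SODCC1, the other cytosolic enzyme gene of this kind, had 137, 157 and 170 FPKM in OX cold leaves and 95.1, 91.5 and 92 FPKM in RNAi cold leaves. The RNAi values were close together and all under those of OX. The difference was 0.73 ± 0.12 (SE; adjusted p = 0.00175), and before cold it was 0.48 ± 0.12 (adjusted p = 0.0544). Both SODCC genes stayed called without any 1 of the 6 cold libraries.

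The other 11 antioxidant genes tested were not called. The plastid enzyme gene SODCP had 219, 231 and 282 FPKM in OX cold leaves and 127, 158 and 141 FPKM in RNAi cold leaves, a difference of 0.77 ± 0.31 (adjusted p = 0.156). The mitochondrial SODA differed by 0.33 ± 0.15 (adjusted p = 0.226). CCS, the chaperone that loads copper into these enzymes, had 44.2, 42.7 and 48.8 FPKM in OX cold leaves and 33.9, 39.4 and 31.7 FPKM in RNAi cold leaves (0.36 ± 0.12, adjusted p = 0.0895). In its list of copper proteins and metallothioneins, COPT3 (0.23) and MT2B (1.33) were also above 0 and COPT1 (-1.02) below, none called. COPT1 was called after quantile normalization (0.0297) and median-ratio scaling (0.0345). Without WT control replicate 2, COPT1 (0.0494) and MT2B (0.0317) were called. The 7 ascorbate peroxidase genes lay between -0.42 and 0.43, on both sides of 0. Fitted on the 12 OX and RNAi libraries alone, SODCP was called (adjusted p = 0.0376), as it was without WT control replicate 2 alone (0.0147).

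Of the dehydrin, LEA and LTI6 genes 1 of 6 tested was called, and of the vacuolar aquaporin genes 1 of 5, both higher in OX. The differences ran from -0.61 to 1.04 in the first list and from -0.14 to 1.04 in the second. LTI6A, a small hydrophobic membrane protein named for its induction by low temperature, had 53.7, 66.7 and 59.7 FPKM in OX cold leaves and 24.7, 27.7 and 34.3 FPKM in RNAi cold leaves. The lines were well apart, and the difference was 1.04 ± 0.21 (SE; adjusted p = 0.00847), or adjusted p = 0.0528 without RNAi cold replicate 1. Control leaves averaged 99.8 ± 9.05 FPKM in OX and 70 ± 20.7 FPKM in RNAi (SD, n = 3). Its relative LTI6B had 907, 872 and 987 FPKM in OX cold leaves and 458, 620 and 789 FPKM in RNAi cold leaves, which did not overlap, and was not called (0.60 ± 0.26, adjusted p = 0.181).

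TIP1-1, an aquaporin of the vacuolar membrane, had 116, 212 and 192 FPKM in OX cold leaves and 69.3, 79.8 and 97.3 FPKM in RNAi cold leaves. The lowest OX library was still above the highest RNAi library. The difference of 1.04 ± 0.24 (SE; adjusted p = 0.0187) lost its call without OX cold replicate 2 (0.0888) or 3 (0.0914) and without RNAi cold replicate 1 (0.0933) or 2 (0.062). Of the 7 aquaporin genes of the plasma membrane none was called, though 5 had all OX cold libraries above all RNAi cold libraries, an arrangement seen in 19.4% of all genes. Without WT control replicate 2, PIP2-6 was called higher in OX (0.63, adjusted p = 0.0323). PIP2-7 lay on the other side, at 1088, 303 and 651 FPKM in OX cold leaves and 1135, 1178 and 1267 FPKM in RNAi cold leaves (-0.99 ± 0.37, adjusted p = 0.132).

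Several kinase and hormone genes were called singly within their lists. SAPK4, an SnRK2-type kinase of osmotic stress signalling, had 63, 95.3 and 82.5 FPKM in OX cold leaves and 37.9, 40.6 and 44.1 FPKM in RNAi cold leaves. The groups did not overlap, and the difference was 0.94 ± 0.19 (SE; adjusted p = 0.00852), or adjusted p = 0.051 without OX cold replicate 2. It was the only called gene among 10 SAPK genes.

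CPK21, a calcium-dependent protein kinase gene, had 10.9, 17.4 and 24 FPKM in OX cold leaves and 7.62, 7.98 and 10.5 FPKM in RNAi cold leaves. OX cold replicate 1 came close to the highest RNAi cold library. The difference of 0.87 ± 0.21 (adjusted p = 0.0273) was not called without OX cold replicate 2 (0.0909) or 3 (0.134), or RNAi cold replicate 1 (0.118) or 2 (0.0914). ACS1, an enzyme gene of ethylene synthesis, had 25, 21.8 and 33.9 FPKM in OX cold leaves and 9.04, 14.2 and 19.3 FPKM in RNAi cold leaves (0.91 ± 0.21, adjusted p = 0.0188). Its call ended without OX cold replicate 3 (0.103) and without RNAi cold replicate 1 (0.0861) or 2 (0.0511). Both genes were at or below 0.318 FPKM in every control library of OX and RNAi, and both were lower in WT cold leaves than in either line, with means of 3.9 ± 0.624 FPKM for CPK21 and 6.96 ± 0.797 FPKM for ACS1 (SD, n = 3).

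KAO, an oxidase gene of gibberellin synthesis, was lower in OX, with 5.9, 7.03 and 4.32 FPKM in OX cold leaves and 10.9, 13.7 and 9.99 FPKM in RNAi cold leaves. The groups did not overlap, and the WT cold mean of 5.68 FPKM was near that of OX. The difference was -0.90 ± 0.19 (SE; adjusted p = 0.0134), and the call ended without OX cold replicate 3 (0.0785) or RNAi cold replicate 2 (0.0634).

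PHYB, the red light receptor phytochrome B, had 27.4, 21.4 and 21.2 FPKM in OX cold leaves and 36.2, 32.8 and 32.5 FPKM in RNAi cold leaves. The cold groups did not overlap, while before cold the means were 20.6 ± 1.69 FPKM in OX and 20.8 ± 0.3 FPKM in RNAi leaves (SD, n = 3). The difference after cold of -0.53 ± 0.12 (SE; adjusted p = 0.0181) was not called without OX cold replicate 2 (0.0807) or 3 (0.0933) or RNAi cold replicate 1 (0.0863).

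The remaining called genes with a name were higher in OX. IRO3, a repressor of the iron deficiency response, had 34.6, 29.9 and 38.5 FPKM in OX cold leaves and 6.53, 19.1 and 10.6 FPKM in RNAi cold leaves, without overlap (1.55 ± 0.41, adjusted p = 0.036). ARF21, an auxin response factor gene, had 32.1, 36.9 and 36.4 FPKM in OX cold leaves and 17, 22.9 and 26.6 FPKM in RNAi cold leaves (0.66 ± 0.17, adjusted p = 0.0314). RCCR1, of chlorophyll breakdown, had 3.96, 4.04 and 4.34 FPKM in OX cold leaves and 2.22, 2.69 and 1.81 FPKM in RNAi cold leaves (0.66 ± 0.16, adjusted p = 0.0242). In all 3 genes the lowest OX cold library exceeded the highest RNAi cold library. IRO3 lost its call without OX cold replicate 1 (0.0675), 2 (0.0824) or 3 (0.133) and without RNAi cold replicate 1 (0.172) or 3 (0.0677). ARF21 lost it without OX cold replicate 2 (0.109) or 3 (0.118) and without RNAi cold replicate 1 (0.153) or 2 (0.0716). RCCR1 lost it without OX cold replicate 2 (0.0722) or 3 (0.0983) and without RNAi cold replicate 1 (0.0845) or 3 (0.0633). RCCR1 was 1 of 4 chlorophyll breakdown genes tested, with a list median of -0.02. NYC1 of that list lay on the other side, at -0.85, and was called only without WT control replicate 2 (adjusted p = 0.0365) among the settings tried for lists.

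Other settings also ended calls of these named genes. Fitted on the 6 cold libraries of OX and RNAi alone, CM-LOX1 (adjusted p = 0.0575), TIP1-1 (0.051), CPK21 (0.0994), ACS1 (0.0931), PHYB (0.0675), ARF21 (0.0684) and RCCR1 (0.0601) were not called. At a pseudocount of 0.1 the adjusted p was 0.219 for CPK21, 0.112 for ACS1 and 0.0819 for CM-LOX1, without a filter on low values it was 0.0533 for IRO3 and 0.0598 for CM-LOX1, and on the 12 OX and RNAi libraries it was 0.0507 for CPK21. Library weights, which called 3942 genes in all, added calls, with adjusted p values of 0.0434 for CCS, 0.0118 for CESA1, 0.0177 for CESA7, 0.019 for COMT1, 0.0274 for PP2C50, 0.00528 for IAA21 and 0.0357 for PORA.

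**Figure D2:**
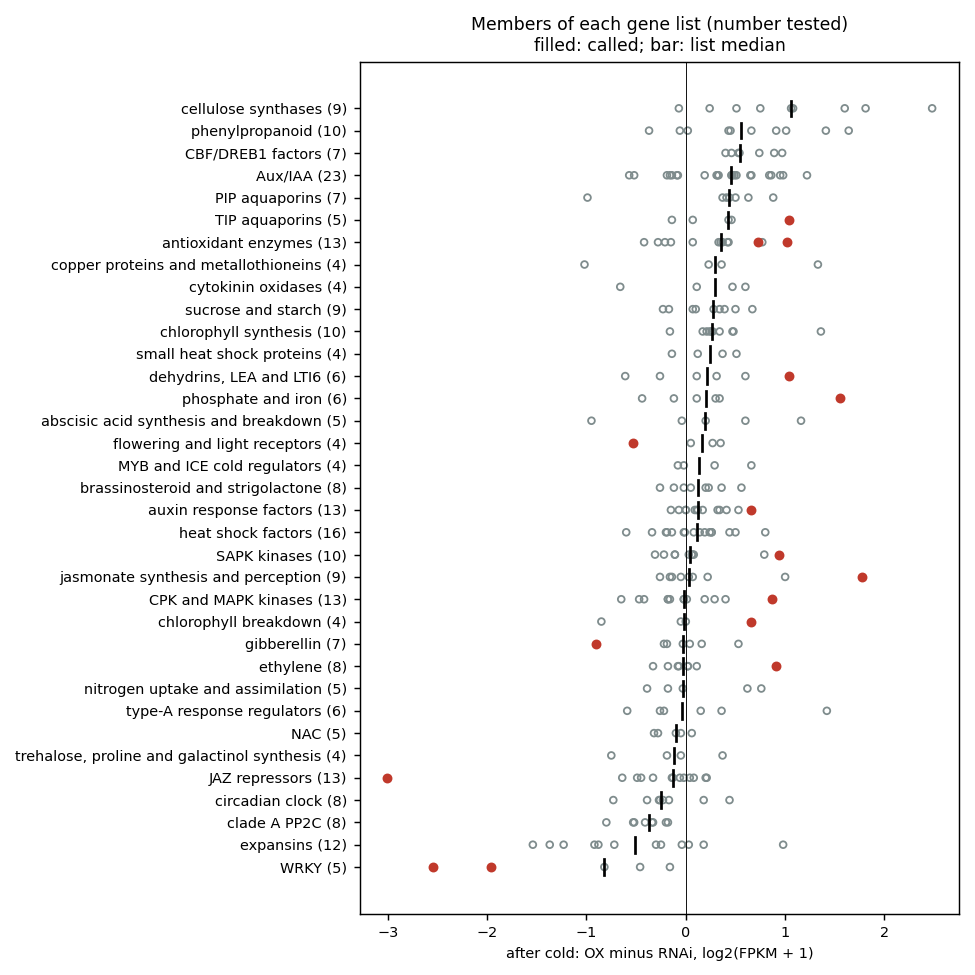
OX minus RNAi difference after cold on the log2(FPKM + 1) scale (horizontal axis) for each member of the gene lists with at least 4 members tested, with the number tested in brackets; filled points are called genes, open points are not, and bars are list medians. The cellulose synthase list has the highest median, 1.06, with no called member, and the WRKY list the lowest, -0.82, with 2.

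No CBF/DREB1 gene was called, and all 7 differences were above 0, between 0.40 and 0.97, with a median of 0.54 against 0.06 over all genes. DREB1B, the most abundant, had 961, 1004 and 1053 FPKM in OX cold leaves and 596, 706 and 519 FPKM in RNAi cold leaves. DREB1A had 265, 308 and 216 FPKM in OX cold leaves and 199, 177 and 66.2 FPKM in RNAi cold leaves. In both genes the lines did not overlap, and WT cold leaves were above both, with means of 1511 ± 152 FPKM for DREB1B and 418 ± 14.2 FPKM for DREB1A (SD, n = 3). The differences were 0.74 ± 0.65 (adjusted p = 0.55) for DREB1B and 0.97 ± 0.39 (adjusted p = 0.155) for DREB1A. These SE values draw on the spread of all groups fitted, not of the OX and RNAi cold libraries alone. Fitted on the OX and RNAi libraries alone, the SE was 0.39 for DREB1B (adjusted p = 0.291) and 0.41 for DREB1A (adjusted p = 0.188), and neither gene was called. The other 5 genes overlapped between the lines. The list median stayed above 0 after quantile normalization (0.49) and median-ratio scaling (0.47). MYBS3, a MYB factor that represses DREB1 genes in cold rice, had 138, 148 and 135 FPKM in OX cold leaves and 87.8, 80.1 and 98 FPKM in RNAi cold leaves, just outside the threshold (0.66 ± 0.19, adjusted p = 0.0513). It was called at a minimum of 5 FPKM (0.0498), with library weights (0.0116), on the 6 cold libraries alone (0.0273) and without WT control replicate 2 (0.0386).

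The cellulose synthase genes had the highest list median, 1.06, and 8 of 9 members above 0, with none called. The secondary wall members CESA4, CESA7 and CESA9 form the complexes that thicken the walls of xylem and fibre cells. CESA7 had 53.9, 94.2 and 82.1 FPKM in OX cold leaves and 7.92, 30.9 and 7.78 FPKM in RNAi cold leaves. CESA9 had 33.3, 59.6 and 41.7 FPKM in OX cold leaves and 8.74, 21.3 and 8.47 FPKM in RNAi cold leaves. In each line replicate 2 was the highest for both genes, and every OX cold library was above every RNAi cold library.

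CESA4, CESA7 and CESA9 summed to 123, 216 and 176 FPKM in OX cold leaves and 28.9, 77.5 and 28 FPKM in RNAi cold leaves. The differences were 2.48 ± 0.85 for CESA7 (adjusted p = 0.0981), 1.81 ± 0.71 for CESA9 (0.15) and 1.60 ± 0.72 for CESA4 (0.207). Of the primary wall genes, CESA1 had 189, 248 and 206 FPKM in OX cold leaves and 99.2, 106 and 95.4 FPKM in RNAi cold leaves (1.08 ± 0.38, adjusted p = 0.107), and CESA3 differed by 1.06 ± 0.54 (0.272). CESA5 did not follow them, at 53.3 ± 13.9 FPKM in OX cold leaves and 54.9 ± 8.78 FPKM in RNAi cold leaves (SD, n = 3).

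In WT control replicate 2, CESA4, CESA7 and CESA9 had 3.73, 3.5 and 3.07 FPKM, while WT control replicates 1 and 3 had 53.3 FPKM or more of each. Leaving that library alone out of the fit called 2286 of the 23175 genes tested, against 1377 with all 18 libraries. In that fit 5 of the 9 genes were called higher in OX: CESA1 (adjusted p = 0.00185), CESA9 (0.00228), CESA4 (0.00263), CESA7 (0.00291) and CESA3 (0.0184). Fitted on the 12 OX and RNAi libraries alone, the 5 were called as well: CESA1 (adjusted p = 0.00402), CESA7 (0.00631), CESA9 (0.0093), CESA4 (0.0105) and CESA3 (0.0495). That fit on the 12 libraries called 1399 of the 23175 genes tested, and 1029 of the 1399 were also called with all 18 libraries.

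Lignin and flavonoid synthesis showed a like pattern, with 8 of 10 differences above 0, a median of 0.56 and none called. COMT1, a methyltransferase of lignin synthesis, had 293, 734 and 607 FPKM in OX cold leaves and 160, 218 and 122 FPKM in RNAi cold leaves (1.64 ± 0.70, adjusted p = 0.185). CAD2, which makes the lignin alcohols, averaged 49.4 ± 20.1 FPKM in OX cold leaves and 17 ± 3.41 FPKM in RNAi cold leaves (SD, n = 3; 1.41 ± 0.64, adjusted p = 0.208). Neither gene overlapped between the lines. WT control replicate 2 was low here too, at 91.8 FPKM for COMT1 and 11.2 FPKM for CAD2, against 1143 and 138 FPKM in WT control replicate 1. With that library alone left out, COMT1 (adjusted p = 0.00616), CAD2 (0.00215), 4CL3 (0.0169) and 4CL1 (0.0366), both coumarate ligase genes, were called higher in OX. In the fit without WT libraries COMT1 (adjusted p = 0.0195), CAD2 (0.0118) and 4CL3 (0.0409) were called. The 2 fits called 2286 and 1399 of the 23175 genes tested.

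Expansins, which loosen cell walls, lay mostly on the other side, with 9 of 12 differences below 0, a median of -0.51 and none called. EXPA2 had 9.83, 4.13 and 5.63 FPKM in OX cold leaves and 16.5, 18.4 and 17.8 FPKM in RNAi cold leaves, which did not overlap (-1.37 ± 0.64, adjusted p = 0.228). EXPA4 was uneven within OX, at 59, 5.61 and 15.7 FPKM in OX cold leaves and 45.4, 47.3 and 71.3 FPKM in RNAi cold leaves (-1.54 ± 0.79, adjusted p = 0.276). OX cold replicate 1 overlapped with the RNAi libraries in EXPA4, and the other 2 were far below them. EXPB2 went the other way, with 2.13, 3.67 and 1.64 FPKM in OX cold leaves and 0.596, 1.26 and 0.397 FPKM in RNAi cold leaves (0.98 ± 0.43, adjusted p = 0.194). It was the one expansin called, higher in OX, in the fit without WT libraries (0.0324) and in that without WT control replicate 2 (0.0224).

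Abscisic acid signalling showed no called gene outside the kinases. All 8 PP2C phosphatase genes, the brakes of this pathway, had differences below 0, between -0.80 and -0.18, with a median of -0.37. PP2C30 averaged 33.2 ± 5.8 FPKM in OX cold leaves and 59.1 ± 14.2 FPKM in RNAi cold leaves (SD, n = 3; -0.80 ± 0.36, adjusted p = 0.209). PP2C50 had 11.3, 8.93 and 8.78 FPKM in OX cold leaves and 11.8, 17 and 14.4 FPKM in RNAi cold leaves (-0.52 ± 0.18, adjusted p = 0.102). In both genes every OX cold library was below every RNAi cold library, an arrangement seen in 9.78% of all genes. Quantile normalization and median-ratio scaling brought PP2C50 to adjusted p values of 0.0448 and 0.0462. NCED3, a synthesis enzyme of abscisic acid, differed by -0.95 ± 0.36 (adjusted p = 0.132), and ABA8OX3, a breakdown enzyme, by 1.16 ± 0.58 (adjusted p = 0.259, and 0.016 on the 6 cold libraries alone).

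Among the Aux/IAA repressors of auxin signalling, 16 of 23 differences were above 0 with a median of 0.46, and none was called. In 9 genes every OX cold library was above every RNAi cold library, as in 19.4% of all genes tested. IAA21 had 135, 190 and 198 FPKM in OX cold leaves and 57.3, 83.5 and 82 FPKM in RNAi cold leaves (1.22 ± 0.42, adjusted p = 0.0989). IAA31 had 5.89, 8.55 and 8.19 FPKM in OX cold leaves and 3.78, 2.95 and 3.48 FPKM in RNAi cold leaves (0.95 ± 0.35, adjusted p = 0.124). Both were called in the fit without WT libraries (0.0283 for IAA21 and 0.00695 for IAA31). Leaving out WT control replicate 2 alone, in which IAA21 had 50.5 FPKM and IAA31 2.69 FPKM, called 2286 of the 23175 genes tested. In that fit 5 of the 23 Aux/IAA genes were called higher in OX, namely IAA31 (0.00529), IAA21 (0.00804), IAA13 (0.0272), IAA15 (0.0347) and IAA1 (0.044). Quantile normalization called none of these and instead 1 gene lower in OX, IAA18 (-0.65, adjusted p = 0.0492).

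Chlorophyll synthesis had 9 of 10 differences above 0, a median of 0.27 and none called. PORA, which reduces protochlorophyllide in the light, had 21, 118 and 30.3 FPKM in OX cold leaves and 20, 11.5 and 17.4 FPKM in RNAi cold leaves (1.36 ± 0.46, adjusted p = 0.0971). OX cold replicate 2 was far above the other libraries, and OX cold replicate 1 barely exceeded the highest RNAi cold library. Without OX cold replicate 1 the difference was called (1.85, adjusted p = 0.0274). The 5 NAC genes lay between -0.32 and 0.06 and the 16 heat shock factor genes between -0.60 and 0.80, none called.

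The position of WT cold leaves between the lines was taken from group means on the log2 scale. WT was nearer to OX than to RNAi in 608 of the 870 genes higher in OX (69.9%) and in 361 of the 507 lower ones (71.2%), against 61.1% of all genes tested. The remaining 262 and 146 called genes had WT cold means nearer to RNAi.

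Before cold, the same OX to RNAi comparison called 401 genes (1.73%), 206 higher (0.889%) and 195 lower (0.841%) in OX. Of these, 265 were also called after cold, all in the same direction, 120 higher and 145 lower. They are 19.2% of the genes called after cold and 66.1% of those called before, and the group means of the 2 comparisons share no library. Both were tested against the same estimate of spread over all 18 libraries, so the calls are not independent. The share was larger for larger differences: 96 of 140 genes that differed by at least 2 on the log2 scale after cold, and 42 of 52 that differed by at least 3, were also called before cold, but 64 of 886 that differed by less than 1. Of the 1112 genes called after cold alone, 937 (84.3%) had the same sign before cold, against 62.0% of all genes tested. Without OX control replicate 2 the count before cold was 1214.

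**Figure D3:**
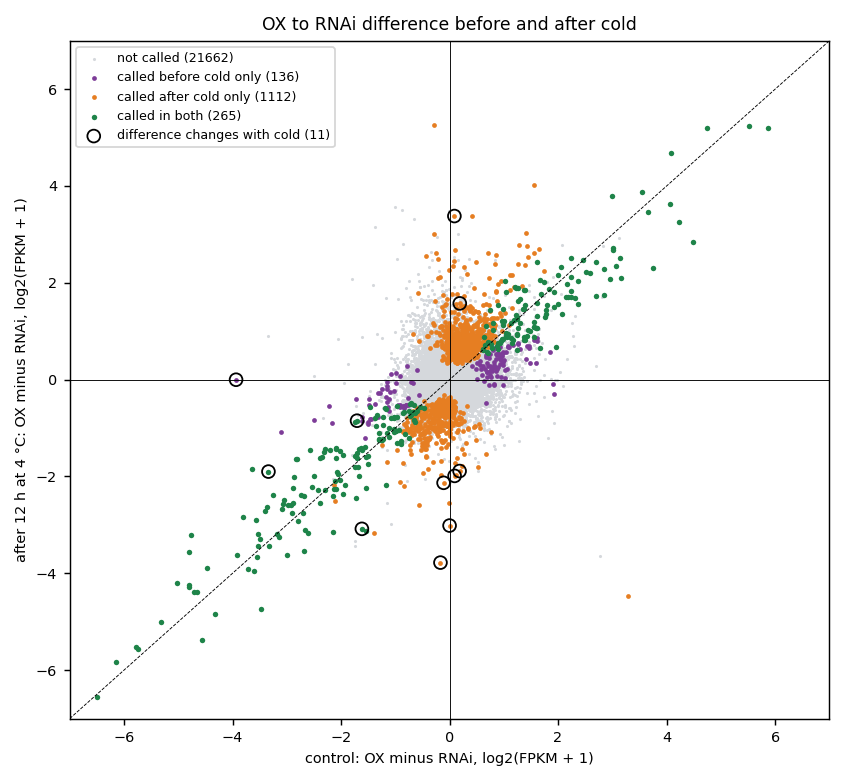
OX minus RNAi difference of each of the 23175 genes on the log2(FPKM + 1) scale in control leaves (horizontal axis) and after cold (vertical axis); colours mark where a gene was called, circles the 11 genes whose difference changed with cold, and the dashed line equal differences. Most genes with the largest differences lie near the dashed line, and the 1112 genes called after cold alone lie mostly within 2 of 0.

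The 5 largest differences each way belonged to 4 locus IDs without a checked name and 1 new gene. Os11g0696600 had 0, 0 and 0.0506 FPKM in OX cold leaves and 84.9, 102 and 98.2 FPKM in RNAi cold leaves, a difference of -6.56 ± 0.13 (SE; adjusted p = 5.75e-14). Os11g0605100 was listed at 0 in all 3 OX cold libraries and had 57.3, 56.5 and 53.1 FPKM in RNAi cold leaves. Os11g0685700 had 0, 0 and 0.0806 FPKM in OX cold leaves and 41, 48.2 and 55.1 FPKM in RNAi cold leaves. These 3 genes of chromosome 11 were near 0 in OX control leaves too and were read in WT cold leaves, with means of 86.2 ± 8.82, 43.1 ± 3.79 and 66 ± 5.86 FPKM (SD, n = 3). Os02g0615800 was lower but not at 0 in OX, with 0.947, 4.63 and 0.514 FPKM in OX cold leaves and 157, 134 and 76.1 FPKM in RNAi cold leaves (-5.53 ± 0.49). The new gene Oryza_sativa_newGene_5457 had 0, 0 and 0.0473 FPKM in OX cold leaves and 40.1, 48.1 and 35.6 FPKM in RNAi cold leaves (-5.37 ± 0.23), with 2.97 ± 1.59 FPKM in WT cold leaves (SD, n = 3).

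In the other direction, Os06g0204100 had 28.1, 39.5 and 42.8 FPKM in OX cold leaves and 0, 0 and 0.0369 FPKM in RNAi cold leaves, and was listed at 0 in all 6 WT libraries. Os03g0426350 had 40.8, 37 and 34.2 FPKM in OX cold leaves and 0, 0.0594 and 0 FPKM in RNAi cold leaves, with 11.3, 19.9 and 24.5 FPKM in WT cold leaves. Both were about as far apart before cold, by 5.87 ± 0.21 and 5.52 ± 0.20, and Os02g0649900 behaved likewise (5.19 ± 0.48 after and 4.74 ± 0.48 before cold). The new gene Oryza_sativa_newGene_4409 had 15.7, 16.2 and 57.2 FPKM in OX cold leaves and was listed at 0 in all 6 RNAi libraries (4.68 ± 0.32 after and 4.07 ± 0.32 before cold). Os03g0658800 differed from these. It had 44.1, 258 and 84 FPKM in OX cold leaves and 0.963, 5.45 and 0.391 FPKM in RNAi cold leaves, but 52.9 ± 28.4 FPKM in OX and 64.8 ± 37.2 FPKM in RNAi control leaves (SD, n = 3). Its difference of 5.26 ± 1.12 (SE; adjusted p = 0.0134) was not called without OX cold replicate 2 (0.0696) or RNAi cold replicate 1 (0.0621), and the change with cold was not called either (5.55, adjusted p = 0.405).

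A group of 105 genes, defined after their values were seen and so given without a test, was under 0.5 FPKM in all 6 libraries of one line and at 1 FPKM or more in all 6 of the other. Of these, 40 were present in OX and near 0 in RNAi leaves, and 65 present in RNAi and near 0 in OX leaves. WT leaves were near 0 in 31 of the 40, present in 3 and between in 6. For the 65, WT leaves were present in 44, near 0 in 10 and between in 11. New genes were 15 of the 40 and 16 of the 65, against 1156 of the 23175 genes tested. Chromosome 11 held 25 of the 65 and 7 of the 40, against 1170 of the 22019 locus IDs tested. No other chromosome held more than 3 genes of either group.

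**Figure D4:**
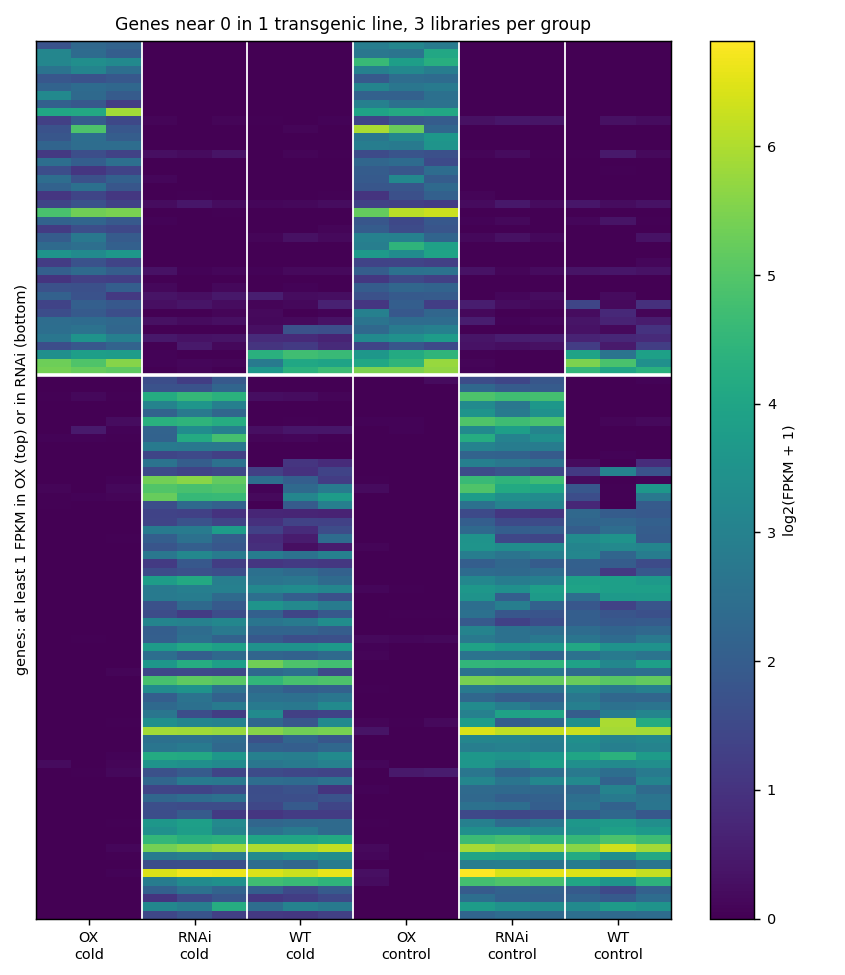
Level of the 105 genes that were near 0 in 1 transgenic line and present in the other, as log2(FPKM + 1) by colour, in the 18 libraries (columns, 3 per group); the white line separates the 40 genes present in OX (top) from the 65 present in RNAi (bottom). The contrast between OX and RNAi holds after and before cold, as the rule requires, and WT libraries resemble RNAi in most of the lower genes and are dark in most of the upper ones.

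The genes called in both conditions were unevenly spread over the chromosomes. On chromosome 11, 9.4% of tested loci were called after cold and 4.79% in both conditions, while the other 11 chromosomes had 3.97% to 6.6% and 0.303% to 1.82%. The tested loci were cut in order into 226 windows, 214 of 100 loci and a shorter one, of 6 to 96 loci, at the end of each of the 12 chromosomes. The median window had 5 calls after cold and 0 in both conditions. The last window of chromosome 11, the 70 loci from Os11g0673100 to Os11g0708600, held the most, 28 calls after cold, 6 higher and 22 lower in OX, of which 24 were called in both conditions. The window from Os04g0101300 to Os04g0149400 on chromosome 4 held 22 calls after cold, 8 higher and 14 lower in OX, of which 14 were called in both conditions. The window from Os12g0203100 to Os12g0254400 on chromosome 12 held 17 calls, 12 of them in both. In all, 9 windows with at least 5 such loci held 87 of the 214, and 138 windows held none. The genotype of the plants outside the transgene was not measured, so its part in these calls was not tested.

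**Figure D5:**
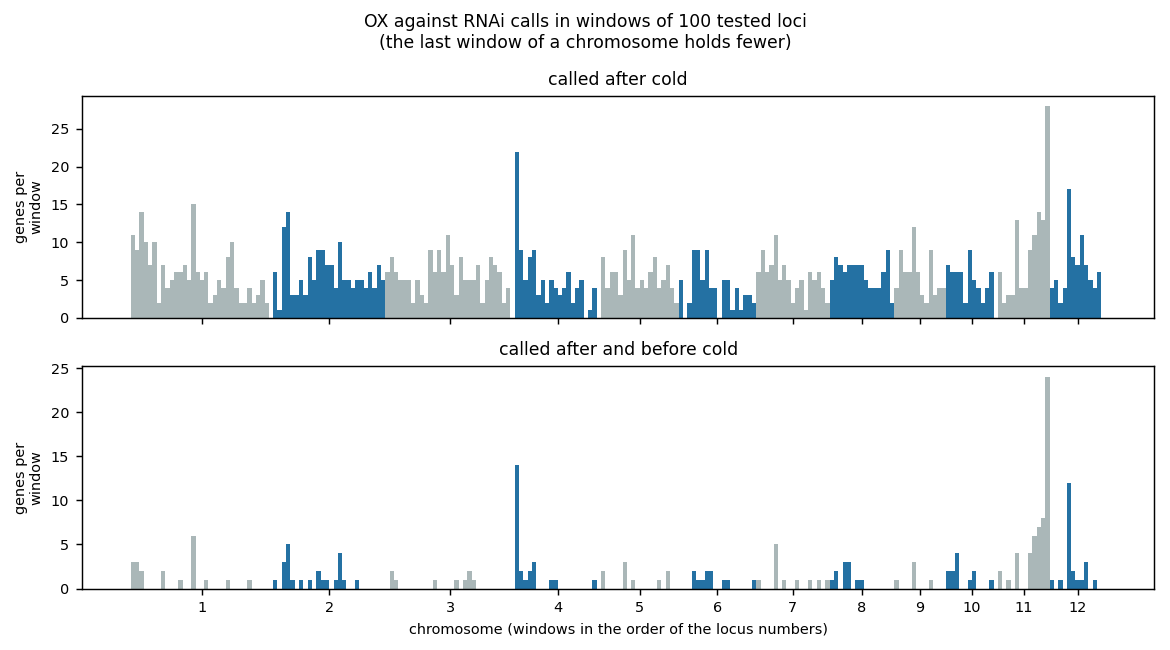
Number of genes called between OX and RNAi leaves after cold (upper panel) and both after and before cold (lower panel) per window of 100 consecutive tested loci, or fewer in the last window of a chromosome (vertical axes, counts), along the 12 chromosomes in alternating colours. Genes called in both conditions number 24 in the last window of chromosome 11, after 4 neighbouring windows of 4 to 8, and 14 and 12 in single windows on chromosomes 4 and 12.

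A difference between lines that itself changed with cold was called in 11 genes (0.0475%), 5 (0.0216%) with a higher and 6 (0.0259%) with a lower cold response in OX, and 2035 genes (8.78%) had an unadjusted p under 0.05. Leaving WT control replicate 2 out of the fit gave 22 such genes. There were 6 when the library left out was replicate 2 or 3 of OX cold, replicate 1 of RNAi cold or replicate 2 of RNAi control, and 7 when it was replicate 3 of RNAi control. TIFY5 is the one with a checked name. Os04g0128700 was listed at 0 in all 6 OX libraries and had 10.7, 10.9 and 17.6 FPKM in RNAi cold leaves, with 0.418, 0 and 0 FPKM in RNAi control leaves. Os04g0206500 showed the opposite, at 18.8, 6.14 and 6.97 FPKM in OX cold leaves and 0 in all 6 RNAi libraries. It reached the minimum of 1 FPKM only in the OX cold libraries, as TIFY5 did only in the RNAi cold libraries. Os06g0614400 differed before cold alone: it had 80, 62.8 and 59.4 FPKM in OX cold leaves and 55.5, 74.5 and 72.5 FPKM in RNAi cold leaves, but 9.48, 6.2 and 7.52 FPKM in OX control leaves and 147, 121 and 127 FPKM in RNAi control leaves. The interactions of WRKY76 (-2.54, adjusted p = 0.336), WRKY62 (-1.81, adjusted p = 0.468) and CESA7 (1.65, adjusted p = 0.671) were not called, so their differences are not shown to be particular to cold. On simulated data this interaction test recovered 33% of changes of 1 on the log2 scale, against 66% for the comparison after cold.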

How the data were processed

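RNA was extracted from leaves with Trizol and made into Illumina TruSeq libraries, per the labels' protocols. The authors deposited FPKM values for 38610 genes in 18 libraries. The submitters' processing notes name Bowtie 0.12.2, while build and counting tool were not given in the sources used here. Here, log2(FPKM + 1) was fitted in limma 3.58.1 (R 4.3.3) with 6 group means over all 18 libraries and a variance trend, after leaving out 15435 rows under the minimum of 1 FPKM in 3 libraries. On simulated data with 200 changed genes, the comparison after cold recovered 91% of changes of 2 and 66% of changes of 1 on the log2 scale, with 4 false calls. The test of a change with cold recovered 83% and 33%, with 12 false calls. The changed genes all averaged above 2 on the log2 scale, and the noise was normal with the same spread in all groups. Recovery in lower genes or with deviating libraries was not tested.

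Of 559 pairs of name and locus ID written from background knowledge, 386 matched by chromosome and order a single gene of the reference table of assembly ASM3414082v1 and were kept, and 308 of those were tested. The genes compared and the lists were chosen with earlier results of these data known, and 10 of 47 lists after the table was opened. Named genes were called genes with non-overlapping groups and at least 5 FPKM in the higher group, up to 10 each way, the 5 largest rows each way, and up to 4 called members per list, or 2 where none was called. Other listed members, such as those of the wall and auxin lists, were named after their values were seen. Alternatives covered the pseudocount, filters, scaling, variance model, weights, replicate block, libraries fitted, a minimum difference and leaving out each OX and RNAi library. Leaving out WT control replicate 2 was added after seeing the data. A planned promoter motif search was not run.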

Additional observations from a re-analysis of the deposited data

Results flagged for a closer look

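In 11 genes the OX to RNAi difference after cold departed from that before cold by a tested interaction (limma, adjusted p under 0.05), and the values below are the OX cold response minus that of RNAi on the log2(FPKM + 1) scale. It was negative in 6 genes, at -3.61 for Os04g0128700, -3.01 for TIFY5, -2.08 for Os03g0741000, -2.07 for Os01g0162200, -2.02 for Os10g0552300 and -1.47 for a new gene, Oryza_sativa_newGene_6236. Os04g0128700, Os10g0552300 and Oryza_sativa_newGene_6236 were listed at 0 in all 6 OX libraries, and TIFY5 and Os03g0741000 were under 0.5 FPKM there. Their negative values come from higher RNAi levels in the cold. Os01g0162200 averaged 0.794 FPKM in OX control and 4.03 FPKM in OX cold leaves, but rose further in RNAi leaves, from 0.608 FPKM in control to 18.1 FPKM in cold. Its WT means were 1.27 FPKM in control and 1.49 FPKM in cold leaves.

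The interaction was positive in 5 genes, at 3.93 for Os06g0614400, 3.29 for Os04g0206500, 1.44 for Os11g0692400, 1.39 for Os06g0696450 and 0.86 for a new gene, Oryza_sativa_newGene_2578. Os11g0692400 had 0 FPKM in all 3 OX cold libraries and 2.45, 3.16 and 2.62 FPKM in RNAi cold leaves, against 0.0716, 0 and 0 FPKM in OX control and 10.6, 9.07 and 8.45 FPKM in RNAi control leaves, so its positive value comes from lower RNAi levels in the cold. The new gene Oryza_sativa_newGene_2578 was listed at 0 in all 6 OX libraries and likewise had less in RNAi cold than in RNAi control leaves, at 0.793, 0.705 and 0.908 FPKM against 2.46, 2.27 and 2.06 FPKM. It reached the minimum of 1 FPKM only in the RNAi control libraries.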

How the results depend on the processing

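After cold, 1377 genes were called. The count was 491 at a minimum of 1 on the log2 scale, 3942 with library weights and 461 to 2286 when 1 library was left out; the cause was not tested. Before cold, against 401, it was 213 at a minimum of 5 FPKM, 236 with only the groups compared, 1061 with library weights and 269 to 1214 with 1 library left out. For the change with cold, against 11, it was 5 at a pseudocount of 0.1, 22 without a filter, 4 at a minimum of 5 FPKM, 20 with library weights and 6 to 22 with 1 library left out. Over 1536 alternatives for 86 named genes after cold, none reversed a called difference, 64 ended a call and 55 made one. Of 26 called genes, 12 kept the call under every alternative but the minimum difference. Of those with a checked name, only TIFY5, SODCC1 and SODCC2 did, and TIFY5 passed the main filter only through the RNAi cold libraries. The others that kept the call were rows chosen for the largest differences.

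After cold, the deviations of same-numbered libraries correlated weakly, at 0.08, 0.19 and 0.16, but above those of differently numbered ones, -0.2 to 0.06. Before cold they correlated at 0.08, 0.41 and -0.23, within the range of the differently numbered ones, -0.5 to 0.45. With a replicate block the counts were 1128 after cold, 360 before and 8 for the change with cold. Read depth is unknown, so no counting error is given.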
